A study of Mus musculus with 2 samples.

Results

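Cdkn1a and 7 further genes that the tumour suppressor p53 is known to activate (Mdm2, Ccng1, Trp53inp1, Phlda3, Zmat3, Bbc3 and Bax) were examined in T cells of a mouse melanoma model. The 8 genes were taken by symbol from the deposited table of 15121 genes, and all 8 were present and had unique molecular identifiers (UMIs, counts of captured transcripts) in both groups. The treated group was given trametinib, an inhibitor of the kinase MEK, together with BGB-283, a RAF kinase inhibitor. The untreated group received no drug. Both groups came from day 5 of a syngeneic model, called NILER in the labels, that derives from the murine line NIL with an Nras Q61R mutation and was exposed to ultraviolet light, so every cell here came from a host carrying an Nras-mutated tumour. The samples are labelled as T cells. The labels used here give no age, strain or number of animals, and neither the dose nor the schedule of the drugs.

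Each group was 1 droplet library of 3' transcript ends. The treated library had 58318786 UMIs over 8078 cells, and the untreated library had 95349992 UMIs over 9312 cells, with medians of 5987.5 and 6155 UMIs per cell. With 1 library per group no spread between animals could be measured, so no test was made, and treatment and library cannot be told apart. Intervals in brackets are 95% intervals of counting error only. Levels are in CPM (counts per 1000000 UMIs of the gate). A gene was called higher or lower when its CPM differed at least 1.5-fold, provided that one library or the other gave it 50 UMIs and 20 CPM or more.

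p53 is a transcription factor that is held at a low level by the ubiquitin ligase Mdm2, itself a p53 target, and that accumulates after DNA damage and other stress. Its target Cdkn1a encodes p21, which binds cyclin-dependent kinases and the replication clamp PCNA and so restrains the cell cycle. Bbc3, the gene of the protein PUMA, and Bax act in the mitochondrial pathway of cell death. In T cells p21 is known to limit repeated division. Cdkn1a can also be induced without p53.

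Because the genes share a regulator, the stretches of their promoters that come closest to the p53 response element are shown. That element is a pair of adjacent 10-base half-sites, and it reads alike on both strands. Promoter windows from RefSeq (GRCm38.p6), which run from 250 bases before to 50 bases after a start site, were held for 6 of the 8 genes, all but Trp53inp1 and Zmat3. The best match is in capitals, with 20 bases on either side, each on the strand of its gene.
Cdkn1a, chr17:29090908-29090967, plus strand: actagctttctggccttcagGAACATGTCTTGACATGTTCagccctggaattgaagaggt
Ccng1, chr11:40755442-40755501, minus strand: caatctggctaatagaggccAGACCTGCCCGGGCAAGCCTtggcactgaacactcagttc
Bbc3, chr7:16309466-16309525, plus strand: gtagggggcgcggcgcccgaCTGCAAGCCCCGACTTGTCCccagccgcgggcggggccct
Bax, chr7:45467070-45467129, minus strand: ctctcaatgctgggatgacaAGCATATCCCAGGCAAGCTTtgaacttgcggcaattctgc

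The Cdkn1a and Ccng1 stretches matched the element at 19 of its 20 positions. They ended 32 and 176 bases before the start site of their own window. For Cdkn1a that start site is at chr17:29090979, and a second one lies downstream at chr17:29093769. Of all 32851 windows in the table, 29 (0.0883%) held a match with at most 1 mismatch. The Bbc3 and Bax stretches matched at 17 of 20 positions, which 6.29% of all windows did as well or better. The windows at the second start site of Cdkn1a, at 2 more of Bbc3 and those of Mdm2 and Phlda3 held no match within 3 mismatches. A match of letters is a description and does not show binding.

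Cells were sorted into 4 gates by their own UMIs. CD8 cells had a Cd3e UMI and a Cd8a or Cd8b1 UMI but no Cd4 or Foxp3 UMI, and numbered 4721 treated and 4335 untreated cells. CD4 cells had Cd3e and Cd4 UMIs but no Cd8a, Cd8b1 or Foxp3 UMI (420 treated and 862 untreated cells). Foxp3 cells, which include regulatory T cells, had Cd3e and Foxp3 UMIs (469 and 744 cells), and the Cd3e=0 gate held cells with no Cd3e UMI (1184 and 1396 cells). The remaining 561 treated and 1334 untreated cells fell in no gate. The T cell markers Cd3e, Cd3d, Cd3g and Trac were present in the first 3 gates, where at least 98.8% of cells had 3 or more UMIs of them. In the Cd3e=0 gate only 38.9% of treated and 36.9% of untreated cells did, so that gate goes against the label in part.

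The gates also held transcripts of other cells. UMIs of 8 macrophage markers, all detected in every gate, summed to 443, 869 and 882 CPM in treated CD8, CD4 and Foxp3 cells, against 1244, 2604 and 4213 CPM in the untreated ones. In the same order, 6 dendritic markers summed to 561, 733 and 881 CPM in treated and 1484, 1807 and 1875 CPM in untreated cells. The 2 erythroid markers summed to at most 1.86 CPM in these gates of the treated library, against 477, 1006 and 171 CPM in the untreated one. At most 0.806% of cells in these gates had 3 or more erythroid UMIs. Of 5 melanocytic markers only Pmel was analysed here, and it had under 1 CPM in every gate. The libraries shared 35 cell barcodes.

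In CD8 cells Cdkn1a, Mdm2 and Ccng1 were higher in the treated library, while Bbc3 and Bax were lower. Cdkn1a stood at 101 CPM in treated and 70.8 CPM in untreated CD8 cells, a ratio of 1.43 (1.36 to 1.5). Mdm2, the gene of the ligase that feeds back on p53, had 53.9 CPM in treated and 36.6 CPM in untreated cells (1.47-fold, 1.37 to 1.57). Ccng1, which encodes the p53-induced cyclin G1, had 55.5 and 41.2 CPM (1.35-fold, 1.26 to 1.44). On the log2 scale these 3 ratios were 0.51, 0.56 and 0.43, above the median of 0.17 over all genes, but none reached 1.5-fold.

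Bbc3 showed the widest gap. Its level was 14.8 CPM in treated and 38.2 CPM in untreated CD8 cells, 2.58-fold lower under treatment (2.33 to 2.85). Bax, which forms pores in the outer mitochondrial membrane, had 122 CPM in treated and 178 CPM in untreated cells, 1.45-fold lower (1.40 to 1.51). The 2 death genes therefore stood on the other side from Cdkn1a.

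Trp53inp1, whose product promotes p53-dependent death and autophagy, had 15.1 CPM in treated and 14.6 CPM in untreated CD8 cells. Phlda3, an inhibitor of the kinase Akt, had 5.02 and 5.40 CPM, and Zmat3, an RNA-binding regulator of splicing, had 13.5 and 7.90 CPM. All 3 were below the expression minimum. The Zmat3 ratio was 1.71 (1.48 to 1.97).

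Among the 5 of 8 genes past the minimum in CD8 cells, 0 were called higher and 1, Bbc3, was called lower. Of all 5830 genes past the same minimum, 31.0% were called higher and 15.7% lower. A gene moving by 1.5-fold was thus common in CD8 cells.

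**Figure D1:**
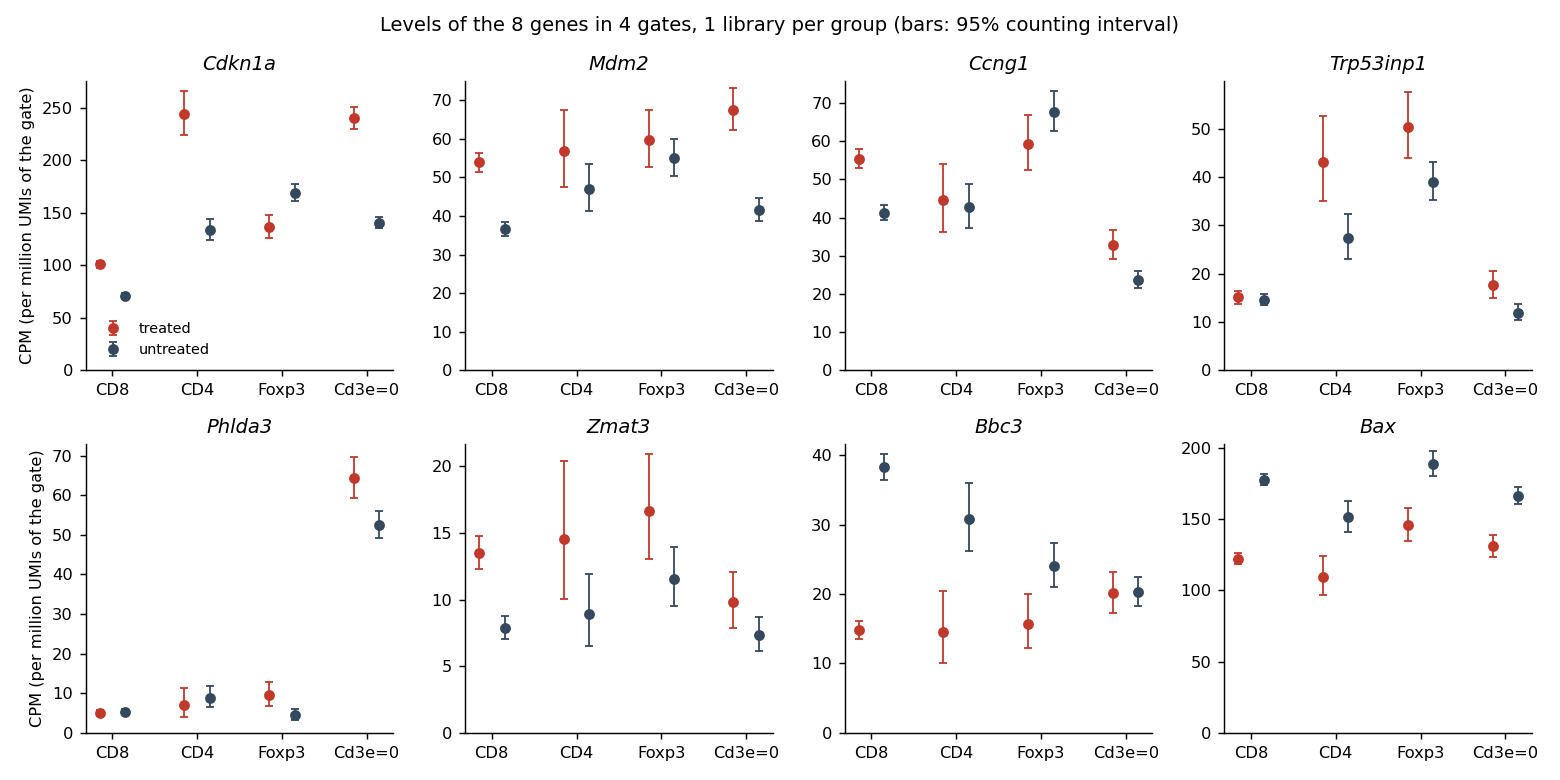
Level of each gene in CPM (vertical axes, each from 0) in the 4 gates, with the treated library in red on the left of each pair and the untreated library in dark blue; points are 1 library each and bars are 95% counting intervals. Bbc3 stood at 14.8 CPM in treated and 38.2 CPM in untreated CD8 cells, while Bax was lower in the treated library in every gate.

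In CD4 cells Cdkn1a and Trp53inp1 were called higher and Bbc3 was called lower. Cdkn1a had 245 CPM in treated and 134 CPM in untreated CD4 cells, 1.82-fold higher (1.63 to 2.04). Trp53inp1 had 43.2 and 27.5 CPM (1.57-fold, 1.20 to 2.05), a log2 ratio of 0.65. That ratio was -0.10 when cells were thinned to 2000 UMIs before gating, and without cells holding macrophage or class II UMIs it was 1.37-fold, short of the call. Bbc3 had 14.5 and 30.8 CPM, 2.12-fold lower (1.45 to 3.19), from only 33 treated and 156 untreated UMIs.

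Mdm2 and Ccng1 differed little in CD4 cells. Mdm2 had 56.9 CPM in treated and 47.0 CPM in untreated cells (1.21-fold, 0.968 to 1.5). Ccng1 had 44.5 and 42.7 CPM (1.04-fold, 0.815 to 1.33). Both intervals include equal levels.

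Bax had 110 CPM in treated and 152 CPM in untreated CD4 cells, 1.38-fold lower (1.20 to 1.60). Of the 6 genes past the minimum, 2 were called higher and 1 lower, where 24.4% and 18.7% of 5882 genes were. Phlda3, at 7.05 and 8.89 CPM, and Zmat3, at 14.5 and 8.89 CPM, were below the minimum.

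In Foxp3 cells Cdkn1a was not higher in the treated library when all cells were counted. It had 136 CPM in treated and 169 CPM in untreated Foxp3 cells, a log2 ratio of -0.31, or 1.24-fold lower (1.13 to 1.36). The sign of the ratio depended on which cells were counted. Without cells holding macrophage or class II transcripts Cdkn1a had 121 and 110 CPM (1.11-fold, 0.975 to 1.25). That interval includes equal levels, and the log2 ratio was 0.14. It was 0.24 for the mean CPM of each cell, and 0.16 when cells were thinned to 2000 UMIs before gating.

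Among the other genes in Foxp3 cells, Trp53inp1 had 50.4 CPM in treated and 39.0 CPM in untreated cells (1.29-fold, 1.09 to 1.53). Mdm2 had 59.8 and 55.0 CPM and Ccng1 had 59.3 and 67.8 CPM, both with intervals that include equal levels. Bbc3 was called lower, at 15.7 CPM in treated and 24.1 CPM in untreated cells (1.53-fold, 1.16 to 2.03).

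Bax had 146 and 189 CPM in Foxp3 cells, 1.30-fold lower in the treated library (1.18 to 1.42). Of the 6 genes past the minimum, 0 were called higher and 1 lower, where 15.9% and 11.2% of 6028 genes were. A Cd8a or Cd8b1 UMI was present in 89 treated and 222 untreated Foxp3 cells. In Foxp3 cells without one, Cdkn1a had 141 CPM in treated and 155 CPM in untreated cells. The Bbc3 call was lost there, at 16.1 CPM in treated and 20.9 CPM in untreated cells (1.30-fold lower, 0.909 to 1.87).

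In the Cd3e=0 gate Cdkn1a and Mdm2 were called higher. Cdkn1a had 240 CPM in treated and 141 CPM in untreated cells (1.71-fold, 1.61 to 1.81). Mdm2 had 67.5 and 41.6 CPM (1.62-fold, 1.46 to 1.81). Both calls were lost without cells holding macrophage or class II UMIs, where Cdkn1a had 159 CPM in treated and 136 CPM in untreated cells (1.17-fold) and Mdm2 had 46.0 and 42.9 CPM (1.07-fold). Ccng1 had 32.7 and 23.7 CPM (1.38-fold, 1.19 to 1.60), and 32.3 and 18.5 CPM (1.75-fold) without those cells.

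Bbc3, lower in treated cells of the other 3 gates, had 20.1 CPM in treated and 20.3 CPM in untreated Cd3e=0 cells. In those with fewer than 20000 UMIs it was lower in the treated library, at 26.4 and 34.0 CPM (0.774-fold, 0.625 to 0.956). At 20000 UMIs or more it had 10.8 and 11.3 CPM. Bax had 131 and 166 CPM, 1.27-fold lower (1.19 to 1.36). In Cd3e=0 cells with fewer than 20000 UMIs Bax had 124 and 189 CPM. At 20000 UMIs or more it had 141 and 152 CPM (0.932-fold, 0.843 to 1.03), an interval that includes equal levels. Phlda3 had 64.3 and 52.5 CPM, far above its levels of at most 9.59 CPM in the T cell gates. Of the 6 genes past the minimum, 2 were called higher and 0 lower, where 26.3% and 9.47% of 6735 genes were.

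**Figure D2:**
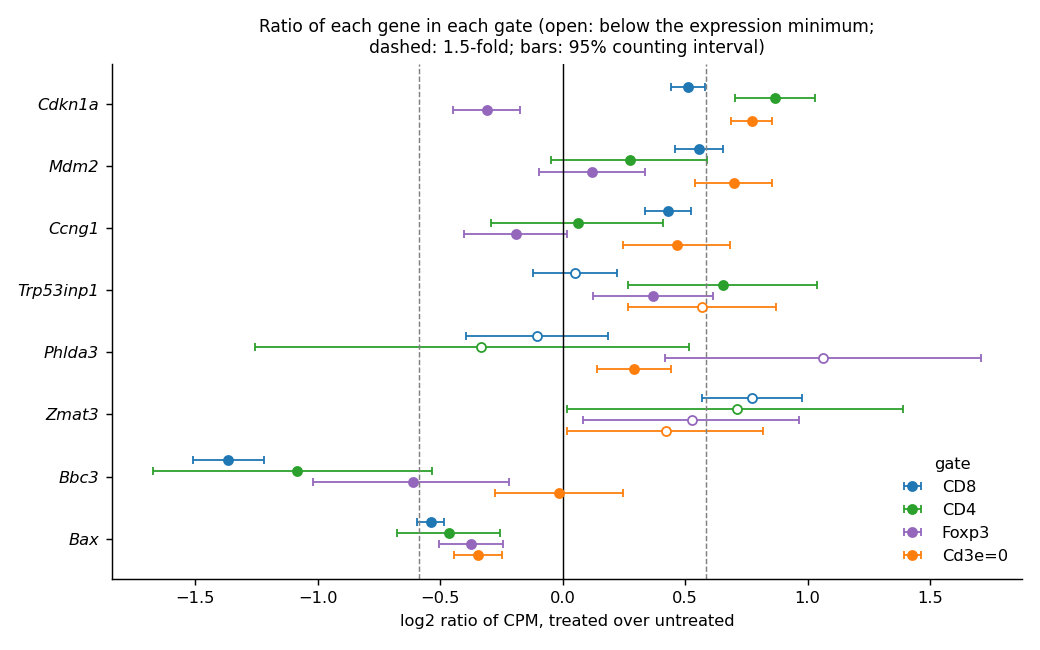
Log2 ratio of CPM, treated over untreated (horizontal axis), of each gene in each gate; bars are 95% counting intervals, dashed lines mark 1.5-fold and open points are genes below the expression minimum. Cdkn1a lay at 0.51 in CD8, 0.87 in CD4 and 0.77 in Cd3e=0 cells and at -0.31 in Foxp3 cells. Without cells holding macrophage or class II transcripts the Foxp3 value was 0.14, with an interval that includes equal levels. All 4 points of Bax lay below 0.

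The order of the gates differed between the libraries. In the treated library Cdkn1a was highest in CD4 and Cd3e=0 cells, at 245 and 240 CPM with overlapping intervals, followed by Foxp3 cells at 136 CPM and CD8 cells at 101 CPM. In the untreated library it was highest in Foxp3 cells at 169 CPM, followed by Cd3e=0 and CD4 cells at 141 and 134 CPM with overlapping intervals. CD8 cells were lowest in both libraries. This order rested in part on cells with macrophage or class II UMIs. Without them Cdkn1a had 240 CPM in CD4, 159 CPM in Cd3e=0, 121 CPM in Foxp3 and 94.6 CPM in CD8 cells of the treated library, and 136 CPM in Cd3e=0, 110 CPM in Foxp3, 93.3 CPM in CD4 and 43.6 CPM in CD8 cells of the untreated library.

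The Cd3e=0 gate was looked at by the markers its cells carried, with a cell counted under every list of which it had 3 or more UMIs. Among cells with neutrophil markers (S100a8, S100a9 and Csf3r), Cdkn1a had 533 CPM in 85 treated cells and 173 CPM in 41 untreated cells (3.08-fold, 2.49 to 3.80), and Mdm2 had 189 and 47.1 CPM. The treated cells of that kind were shallow, with a median of 1894 UMIs against 6108 in the untreated ones. Among cells with macrophage markers, Cdkn1a had 321 CPM in 290 treated cells and 128 CPM in 509 untreated cells (2.50-fold, 2.29 to 2.72), and Mdm2 had 92.4 and 40.1 CPM.

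Cells with T cell markers were the most frequent of the kinds split here. Their Cdkn1a also differed, at 195 CPM in 461 treated cells and 105 CPM in 515 untreated cells (1.87-fold, 1.58 to 2.20). Their Mdm2 interval included equal levels. Dendritic markers were not used for a split, though 39.6% of treated and 58.9% of untreated cells of the gate had 3 or more UMIs of them. With natural killer markers Cdkn1a had 135 CPM in 51 treated cells and 132 CPM in 33 untreated cells. With B cell markers it had 44.7 and 41.8 CPM, though the untreated library held only 10 such cells. With stroma markers (Col1a1, Col3a1 and Pecam1) it had 126 CPM in treated and 139 CPM in untreated cells. The Cdkn1a and Mdm2 differences of the Cd3e=0 gate were therefore not evenly spread over its cells.

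Most Phlda3 UMIs of the Cd3e=0 gate lay in cells with stroma markers, 584 of 589 in treated and 791 of 930 in untreated cells. Phlda3 had 164 CPM in 93 treated and 129 CPM in 131 untreated Cd3e=0 cells with 3 or more stroma UMIs. Other marker classes can share cells with that one. Cells with macrophage markers had 60.4 and 14.2 CPM. In the treated library they held 227 of the 589 UMIs, so nearly all of these lay in cells that also had stroma markers. Cells with neutrophil markers had 0 UMIs in the treated library and 146 CPM in the untreated one. Cells of the gate with fewer than 20000 UMIs had 2.75 and 5.87 CPM of Phlda3. The stroma cells were deep, with medians of 19333 UMIs in treated and 43083 UMIs in untreated cells. In treated CD8 cells 1 cell held 52 of the 176 Phlda3 UMIs. No direction is read for Phlda3 in any gate.

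The libraries were then split by Mki67, a marker of proliferating cells. A Mki67 UMI was found in 8.54% of treated and 13.0% of untreated CD8 cells, in 5.95% and 5.22% of CD4 cells, in 19.6% and 26.2% of Foxp3 cells and in 3.72% and 11.8% of Cd3e=0 cells. The Mki67 level itself was 45.6 CPM in treated and 67.3 CPM in untreated CD8 cells. Cells with a Mki67 UMI were deeper, with medians of 10377 UMIs in treated and 18902 UMIs in untreated CD8 cells, against 6418 and 6433 UMIs in cells without one.

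The Cdkn1a ratio in CD8 cells was larger in cells without Mki67 than in cells with it, but that contrast depended on which cells were counted. Without Mki67 Cdkn1a had 102 CPM in treated and 56.8 CPM in untreated cells (1.79-fold, 1.68 to 1.90). In CD8 cells with Mki67 it had 98.0 and 103 CPM, a ratio of 0.949 (0.855 to 1.05). Within the treated library the ratio of cells with to cells without Mki67 was 0.965 (0.876 to 1.06), and within the untreated library it was 1.82 (1.69 to 1.95).

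On the log2 scale the Cdkn1a ratios in CD8 cells without and with Mki67 were 0.84 and -0.08. They were 1.42 and 0.72 when cells were thinned to 2000 UMIs before gating, and 1.49 and 0.26 without cells holding macrophage or class II UMIs. In cells of 10000 to 20000 UMIs the order turned, at 0.034 without and 0.30 with Mki67. Pdcd1 encodes PD-1, a checkpoint receptor of activated T cells. In CD8 cells with a Pdcd1 UMI and without Mki67 the levels were 102 CPM in treated and 107 CPM in untreated cells (0.952-fold).

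In CD8 cells without Mki67, Mdm2 had 54.4 CPM in treated and 35.3 CPM in untreated cells (1.54-fold, 1.43 to 1.67), and Ccng1 had 54.9 and 36.2 CPM (1.52-fold, 1.40 to 1.64). In CD8 cells with Mki67 the ratios were 1.28 (1.10 to 1.49) for Mdm2 and 1.12 (0.971 to 1.28) for Ccng1. Bbc3 was 3.0-fold lower in treated cells without Mki67, at 15.6 and 46.9 CPM, and 1.78-fold lower in treated cells with Mki67, at 10.2 and 18.2 CPM.

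Of the 5 genes past the minimum in CD8 cells without Mki67, 3 were called higher (Cdkn1a, Mdm2 and Ccng1) and 1 lower (Bbc3), where 34.3% and 13.4% of all genes were. Of the 4 past it in CD8 cells with Mki67, 0 were called in either direction, where 23.4% and 16.5% of all genes were. Bbc3 was not among those 4, since its level of 18.2 CPM in untreated cells was below the minimum of 20 CPM. It was 1.78-fold lower in the treated library there (1.32 to 2.46). Whether the ratios of the 2 states differ between animals was not tested.

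**Figure D3:**
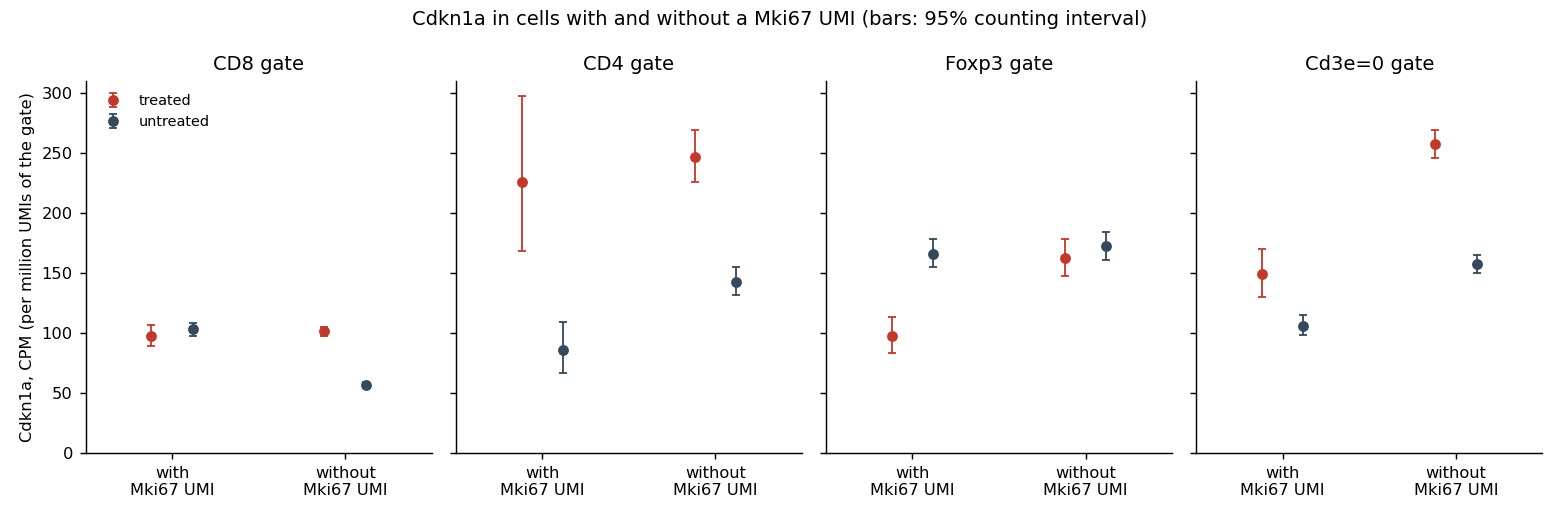
Cdkn1a in CPM (vertical axis from 0) in cells with and without a Mki67 UMI in the 4 gates, treated library in red on the left and untreated library in dark blue on the right of each pair; bars are 95% counting intervals. In CD8 cells with Mki67 the points lie at 98.0 CPM in treated and 103 CPM in untreated cells, and in those without it at 102 CPM in treated and 56.8 CPM in untreated cells.

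In the other gates the 2 states gave other patterns. In CD4 cells Cdkn1a was higher in the treated library in both states, at 226 and 86.0 CPM with Mki67 (25 treated and 45 untreated cells) and at 247 and 143 CPM without it. In Foxp3 cells with Mki67 Cdkn1a was lower in the treated library, at 97.5 CPM against 166 CPM in untreated cells (1.70-fold). Without Mki67 it had 163 and 172 CPM. After thinning with full-count gates, 17.4% of treated and 19.5% of untreated Foxp3 cells with Mki67 had a Cdkn1a UMI. The intervals overlapped. A UMI of the macrophage gene Lyz2 was then found in 3.26% of treated and 25.6% of untreated ones. In the Cd3e=0 gate Cdkn1a had 149 and 106 CPM with Mki67 and 258 and 158 CPM without it. Bax in this gate had 162 CPM in both libraries with Mki67, and 125 and 169 CPM without it.

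In CPM, Bbc3 and Trp53inp1 were lower in cells with Mki67 than in cells without it in both libraries and in every gate. In treated CD8 cells Bbc3 had 10.2 CPM with and 15.6 CPM without Mki67, and in untreated CD8 cells it had 18.2 CPM with and 46.9 CPM without it. Trp53inp1 had 34.8 CPM with and 60.9 CPM without Mki67 in treated Foxp3 cells, and 27.1 CPM with and 51.1 CPM without it in untreated Foxp3 cells. The intervals included equal levels for Trp53inp1 in treated CD4 cells, and for Bbc3 in CD4 cells of both libraries and in treated Foxp3 cells. After thinning with full-count gates the shares of cells did not all keep this order. Bbc3 kept it in untreated CD8 cells, at 3.92% with and 9.45% without Mki67. In treated Foxp3 cells Bbc3 was at 3.26% with and 1.62% without Mki67, and Trp53inp1 in treated Cd3e=0 cells at 8.11% and 6.02%. Intervals overlapped in these last 2 cases.

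The Cdkn1a ratio in CD8 cells depended strongly on how deep the cells were, a split made after the values were seen. In cells of 3000 to 6000 UMIs Cdkn1a had 111 CPM in 1678 treated cells and 10.6 CPM in 1514 untreated cells, 10.5-fold higher (8.29 to 13.5). At 6000 to 10000 UMIs it had 96.8 and 20.5 CPM (4.73-fold, 4.11 to 5.46). At 10000 to 20000 UMIs it had 104 and 96.1 CPM (1.08-fold, 0.979 to 1.18).

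At 20000 UMIs or more the order turned, with 90.0 CPM in 68 treated cells and 127 CPM in 404 untreated cells (1.41-fold lower, 1.22 to 1.65). From 3000 UMIs upward the treated level lay between 90.0 and 111 CPM, and the untreated level was low in shallow cells and high in deep ones. Under 3000 UMIs, with 139 treated and 169 untreated cells, Cdkn1a had 72.7 and 50.9 CPM with intervals that overlap.

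Other features moved with depth. Pdcd1 had a UMI in 55.1% of treated and 8.98% of untreated CD8 cells at 3000 to 6000 UMIs, and in 89.7% and 77% at 20000 UMIs or more. A Mki67 UMI was found in 3.40% and 1.25% of cells at 3000 to 6000 UMIs and in 64.7% and 63.6% at 20000 or more. Cells with 3 or more macrophage or class II UMIs made up 3.99% of treated and 1.78% of untreated CD8 cells at 3000 to 6000 UMIs, and 25.0% and 49.5% at 20000 or more. Their part in the Cdkn1a ratio was not tested.

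Some splits by these features can be given directly. In CD8 cells without a Pdcd1 UMI, Cdkn1a had 101 CPM in treated and 40.6 CPM in untreated cells (2.49-fold, 2.27 to 2.73). In CD8 cells with one it had 101 and 104 CPM (0.967-fold, 0.912 to 1.02), with medians of 6959 UMIs in treated and 12431 UMIs in untreated cells. In cells with Pdcd1 that had 3000 to 6000 UMIs, Cdkn1a had 118 CPM in 924 treated cells and 33.7 CPM in 136 untreated cells, and in those without it at this depth it had 103 and 8.37 CPM. At 10000 to 20000 UMIs the order turned in cells with Pdcd1, at 97.8 CPM in treated and 111 CPM in untreated cells (0.881-fold, 0.792 to 0.981). In cells without it at that depth, Cdkn1a had 147 CPM in 66 treated and 68.3 CPM in 282 untreated cells (2.15-fold, 1.72 to 2.67).

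Macrophage or class II transcripts went with high Cdkn1a in both libraries. CD8 cells with 3 or more such UMIs had 184 CPM of Cdkn1a in 273 treated and 158 CPM in 522 untreated cells. Without those cells Cdkn1a had 94.6 and 43.6 CPM, 2.17-fold higher in the treated library (2.04 to 2.31) in place of 1.43-fold. With those cells left out, the level was 111 CPM in treated and 10.7 CPM in untreated cells at 3000 to 6000 UMIs, 94.4 and 18.8 CPM at 6000 to 10000 UMIs, and 87.6 and 73.6 CPM at 10000 to 20000 UMIs. At 20000 UMIs or more it was 49.4 CPM in 51 treated and 80.4 CPM in 204 untreated cells. Without them the treated level was thus lower in deep cells than in shallow ones, and the gap between the libraries at 3000 to 6000 UMIs was much the same.

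Mdm2 and Ccng1 followed the depth pattern more weakly. Mdm2 was 1.58-fold higher in treated CD8 cells at 3000 to 6000 UMIs (55.9 and 35.5 CPM), 1.76-fold at 6000 to 10000 UMIs (54.7 and 31.1 CPM) and 1.45-fold at 10000 to 20000 UMIs (52.7 and 36.4 CPM). At 20000 UMIs or more it had 44.5 and 42.2 CPM with overlapping intervals. Ccng1 was 1.78-fold, 1.85-fold and 1.34-fold higher in the same 3 ranges and had 44.5 and 52.5 CPM in the deepest cells.

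Bbc3 was lower in the treated library at every depth. It had 24.4 CPM in treated and 48.6 CPM in untreated CD8 cells at 3000 to 6000 UMIs, 13.8 and 61.0 CPM at 6000 to 10000 UMIs, and 7.81 and 29.3 CPM at 10000 to 20000 UMIs. In the deepest cells it had 10.7 and 20.1 CPM. With and without Pdcd1 the treated library was again lower, at 9.91 and 18.4 CPM with it and at 28.3 and 56.1 CPM without it. Bbc3 was thus lower in CD8 cells with Pdcd1 than in those without it, in both libraries.

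**Figure D4:**
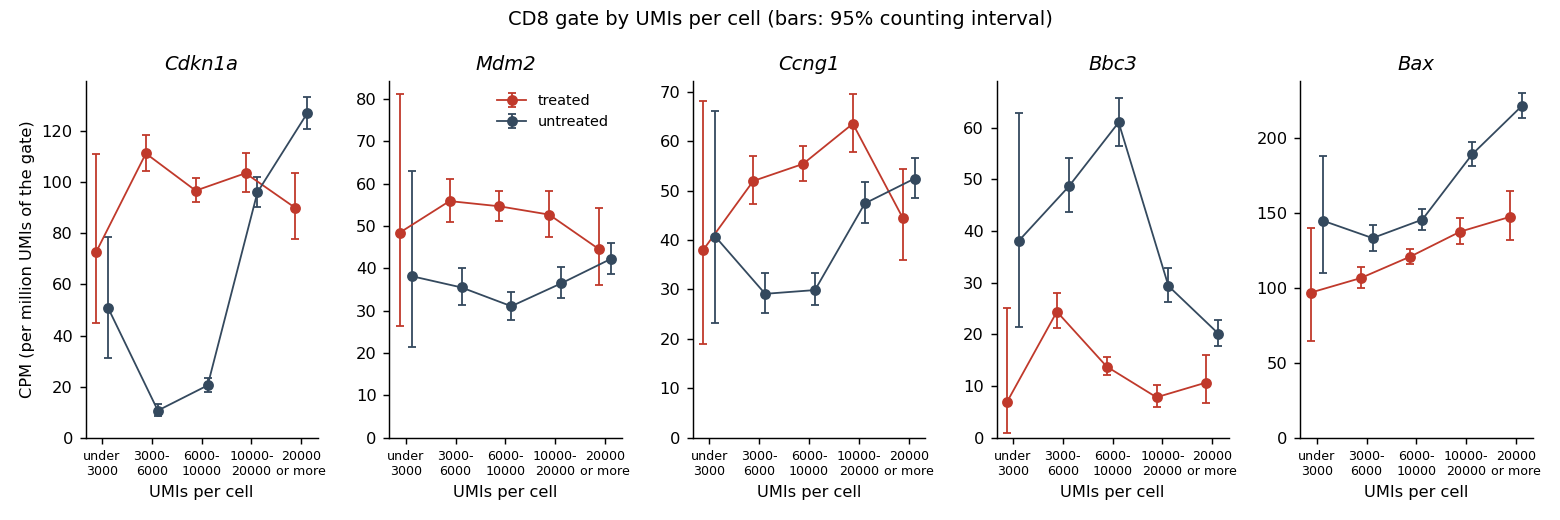
Cdkn1a, Mdm2, Ccng1, Bbc3 and Bax in CD8 cells in CPM (vertical axes from 0) by the number of UMIs per cell (horizontal axis, 5 ranges), treated library in red and untreated library in dark blue, with 95% counting intervals. Treated Cdkn1a lies at 111 CPM at 3000 to 6000 UMIs and at 90.0 CPM at 20000 UMIs or more, while untreated Cdkn1a lies at 10.6 and 127 CPM.

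Cdkn1a UMIs were also unevenly spread over cells. The 10% of cells with the most Cdkn1a UMIs held 53.9% of them in treated and 88.5% in untreated CD8 cells, and 51.0% and 88.2% in CD4 cells. In Foxp3 cells the shares were 53.7% and 62.2%. The untreated CD8 and CD4 levels therefore came from few cells.

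Shares of cells with a Cdkn1a UMI were compared after each cell was thinned to 2000 UMIs, with gates set on the full counts. In CD8 cells 16.7% of treated (15.7 to 17.8) and 6.29% of untreated cells (5.58 to 7.05) had one, against 37.6% and 17.2% before thinning. Thinning left out 57 treated and 40 untreated CD8 cells that were shallower. In CD4 cells the thinned shares were 28.9% and 10.7%, and in Foxp3 cells they were 24.8% and 20.9% with overlapping intervals.

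In the Cd3e=0 gate 30.8% of treated and 15.9% of untreated cells had a Cdkn1a UMI after thinning. For Bbc3 the thinned shares in CD8 cells were 3.79% of treated and 8.73% of untreated cells, against 9.85% and 26.1% before thinning. No cell type here is known to lack Cdkn1a or Bbc3, so no share from free RNA could be set for them. For scale, the macrophage gene Lyz2 had a UMI in 3.99% of treated and 7.40% of untreated CD8 cells after thinning, with medians of 6562 and 6874 UMIs before it.

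Genes that act around p53 were read from lists chosen with earlier results of these data known. Trp53, the gene of p53 itself, had 144 CPM in treated and 159 CPM in untreated CD8 cells, 123 and 136 CPM in CD4 cells, 152 and 136 CPM in Foxp3 cells, and 143 and 170 CPM in Cd3e=0 cells. None of these differences reached 1.5-fold. Mdm4, the partner of Mdm2 in restraining p53, had 37.2 CPM in treated and 42.4 CPM in untreated CD8 cells.

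Of the list of 15 p53 regulators, 11 passed the minimum in CD8 cells, and 6 were called higher and 0 lower, where 31.0% and 15.7% of all genes were. The list median was 0.93 on the log2 scale, against 0.17 for all genes. The largest ratios were those of Sirt1, a deacetylase that acts on p53, at 57.5 CPM in treated and 12.7 CPM in untreated cells (4.54-fold), and Ep300, an acetyltransferase that acts on it, at 124 and 43.4 CPM (2.87-fold). In CD4, Foxp3 and Cd3e=0 cells 6 regulators each were called higher and 0 lower, of 9, 10 and 10 past the minimum. Of all genes 24.4%, 15.9% and 26.3% were called higher in these gates. These genes have many functions other than the control of p53.

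Other p53 targets were read in 3 lists, in CD8 cells, where 31.0% of all genes were called higher and 15.7% lower. Of 10 arrest targets 3 passed the minimum and 2 were called higher, Sfn, the gene of a 14-3-3 protein, at 61.5 CPM in treated and 10.9 CPM in untreated cells (5.62-fold), and the kinase gene Plk3 at 55.1 and 16.7 CPM (3.30-fold). Btg2, an anti-proliferative factor, had 237 and 243 CPM. Rprm, of the same list, was not analysed here.

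Of 10 other death targets, 6 passed the minimum, 2 were called higher and 1 lower, shares close to the 31.0% and 15.7% of all genes. The median log2 ratio was 0.10. Perp, which encodes a membrane protein, had 38.8 CPM in treated and 11 CPM in untreated CD8 cells (3.52-fold), and Apaf1, the core of the apoptosome, had 56.7 and 17.8 CPM (3.19-fold). The nuclease gene Aen had 12.8 and 21.8 CPM (1.71-fold lower), and Ei24 had 39.1 and 39.5 CPM.

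Of 14 repair and metabolism targets only 3 passed the minimum, and 0 were called in either direction, with a median of 0.00 to 2 decimals. Triap1 had 26.0 CPM in both libraries, Sco2, a factor of cytochrome c oxidase assembly, had 20.4 CPM in treated and 19.5 CPM in untreated cells, and Fdxr, the ferredoxin reductase, had 17.9 and 21.4 CPM.

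Of the other CDK inhibitors, 2 of 6 passed the minimum in CD8 cells. Cdkn1b, which encodes p27, had 112 CPM in treated and 65.2 CPM in untreated CD8 cells (1.72-fold), 179 and 111 CPM in CD4 cells, 117 and 113 CPM in Foxp3 cells and 111 and 75.6 CPM in Cd3e=0 cells. Cdkn2d, which encodes p19INK4d, was lower, at 36.4 and 84.5 CPM in CD8 cells (2.32-fold). The list median was -0.22.

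Among 12 cyclins, kinases and other partners of p21, 11 passed the minimum in CD8 cells, with 3 called higher and 6 lower, where 31.0% and 15.7% of all genes were. The share called higher was thus near that of all genes, and the median log2 ratio was -0.92. Pcna, the replication clamp, had 185 CPM in treated and 94.3 CPM in untreated CD8 cells (1.96-fold), and Ccne2, a cyclin of S phase entry, had 21.3 and 5.25 CPM (4.05-fold). Ccnd1, a D-type cyclin induced by growth signals, had 3.37 and 20.4 CPM (6.05-fold lower), and the mitotic cyclin gene Ccnb1 had 6.51 and 29.1 CPM (4.47-fold lower).

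Of a list of 11 cycling genes, which shares Cdk1 and Ccnb1 with the p21 partners, 10 passed the minimum in CD8 cells. All 10 were called lower, as were 15.7% of all genes, with a median log2 ratio of -1.43. Aurkb, a mitotic kinase gene, had 6.39 CPM in treated and 25.8 CPM in untreated cells, Top2a, a topoisomerase gene, had 71.5 and 160 CPM, and Cenpf, a kinetochore gene, had 17.1 and 37.5 CPM. Pcna thus stood apart from the mitotic genes of the lists.

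**Figure D5:**
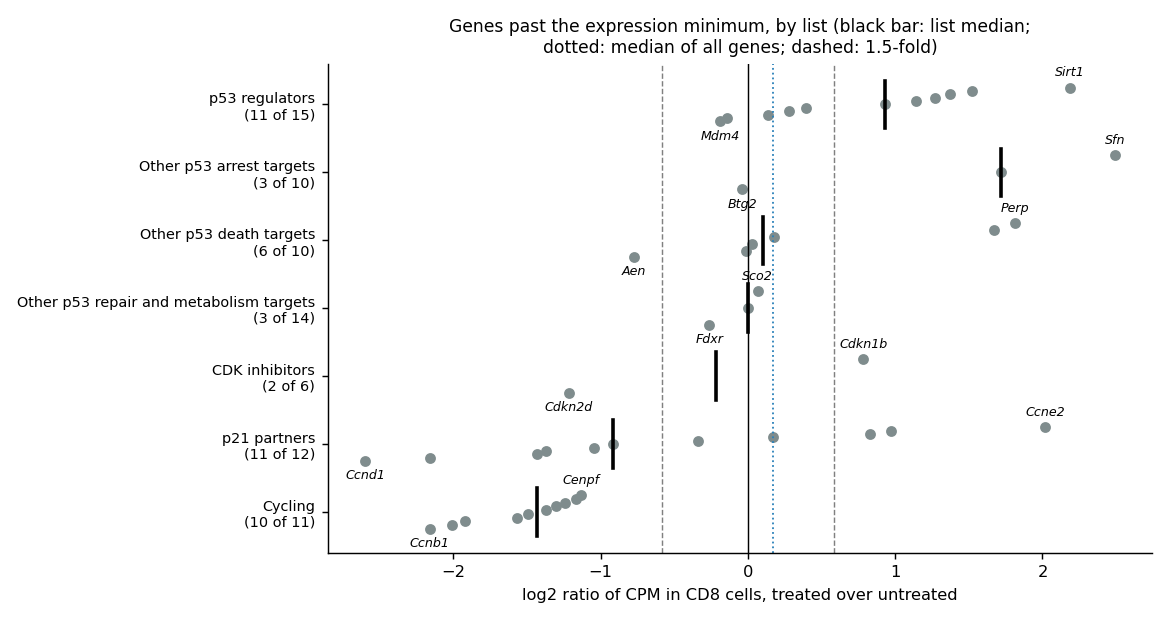
Log2 ratio of CPM in CD8 cells, treated over untreated (horizontal axis), for each gene past the expression minimum in 7 lists; black bars are list medians, the dotted line is the median of all genes at 0.17 and dashed lines mark 1.5-fold, with the number of genes past the minimum of those listed in brackets. The p53 regulators have a median of 0.93 and the cycling genes one of -1.43.

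The genes most like Cdkn1a were sought over 16 profiles, the 4 gates with and without Mki67 in both libraries, among 8037 genes. The 5 with the highest Pearson r of log2(CPM + 1) were Rassf3 (0.86), Fam168a (0.82), Tmem88 (0.81), Pde4b (0.81), which encodes a phosphodiesterase of cyclic AMP, and Rnf19b (0.81), which encodes a ubiquitin ligase. Of the other 7 genes studied here, Mdm2 was most alike at 0.66, followed by Trp53inp1 at 0.37, Zmat3 at 0.22 and Ccng1 at 0.13. Phlda3, Bbc3 and Bax were at -0.07, -0.29 and -0.40. The profiles share 2 libraries and differ in depth, so these values are a description.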

How the data were processed

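Single-cell RNA of 2 libraries was analysed, 1 treated and 1 untreated. Per the submitters' processing notes Cell Ranger and Seurat were used, with no version given, and the build named is GRCh38 although the symbols are mouse symbols. The authors deposited 1 table of natural log values, that is ln(1 + x) with x the UMIs of a gene scaled to 10000 per cell. All 38204229 nonzero values were whole UMIs within 0.01 after rescaling each cell, and these UMIs were used. Cells were assigned to libraries by the suffix of their names, whose cell numbers equal those in the labels.

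A filter of 200 genes or more and a mitochondrial share of 10% or less took out 358 treated and 216 untreated cells. Scrublet in scanpy 1.11.5 marked only 1 and 3 cells by its automatic threshold, so the cells with the highest 5% of scores were removed (365 and 425), leaving 7355 and 8671. UMIs were summed per library and gate and given as CPM of the gate total. Levels have exact Poisson intervals, ratios have exact intervals from the binomial given their sum, and shares have Clopper-Pearson intervals, all for counting error only. The 13998 genes with UMIs in both libraries entered counts over all genes, since 644 and 492 genes had no UMI in 1 of them.

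The 8 genes and all lists were chosen with earlier results of these data known. Named from each list were the 2 highest and the 2 lowest ratios in CD8 cells past the minimum, plus Trp53, Mdm4, Cdkn1b, Mki67 and Pcna. The splits by depth, Pdcd1 and markers were added after the values were seen. The ratio step was tested on simulated counts. Python 3.11.15, numpy 2.4.6, scipy 1.17.1 and pandas 2.3.3 were used.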

Additional observations from a re-analysis of the deposited data

Results flagged for a closer look

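The ratio of Cdkn1a pointed in different directions in the gates. On the log2 scale, treated over untreated, it was 0.51 in CD8 cells, 0.87 in CD4 cells and 0.77 in Cd3e=0 cells, but -0.31 in Foxp3 cells. With 1 library per group the difference between gates was not tested. Without cells holding macrophage or class II UMIs the Foxp3 value was 0.14, with an interval that includes equal levels. The Cd3e=0 value was then 0.23.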

How the results depend on the processing

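No paired analysis was possible because each group is 1 library. Of 109 recomputed values of the leading results, 65 stayed within their counting interval or within 1.5 times the main count, 42 moved and 2 changed sign; of 349 values of single genes 276, 56 and 17 did. The number of genes at least 1.5-fold higher in CD8 cells, 0 in the main analysis, was 1 without cells with macrophage or class II UMIs, with totals without ribosomal and mitochondrial genes, and with no minimum beyond 10 UMIs. It was 3 for the mean CPM of each cell, for cells thinned to 2000 UMIs before gating, and in cells without Mki67. The number in CD4 cells, 2 in the main analysis, was 1 with 2 UMIs to enter a gate, without cells with macrophage or class II UMIs, without ribosomal and mitochondrial totals, for the mean of each cell, for thinned cells, at a minimum of 100 CPM, in cells with Mki67 and without cells with stroma markers. The number in Cd3e=0 cells, also 2, was 1 without cells with macrophage or class II UMIs (Ccng1, neither of the 2 called before), centred on the median gene, thinned, at 100 CPM and in cells with Mki67. The number in Foxp3 cells, 0, was 1 with no minimum beyond 10 UMIs. In the main analysis 31.0% of all genes were called higher in CD8, 24.4% in CD4, 26.3% in Cd3e=0 and 15.9% in Foxp3 cells. In CD8 cells without Mki67 the share was 34.3%. Shares of all genes under the other alternatives are not given here, so changes in these counts are not read as results about the 8 genes.

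The Cdkn1a log2 ratios in all CD8 cells, in those without and in those with Mki67 were 0.51, 0.84 and -0.08. Without cells with macrophage or class II UMIs they were 1.12, 1.49 and 0.26, for the mean of each cell 1.32, 1.60 and 0.21, and for thinned cells 1.37, 1.42 and 0.72. The first 2 were 0.38 and 0.64 without ribosomal and mitochondrial totals, 0.34 and 0.58 centred on the median gene, 1.32 and 1.66 in cells without Pdcd1, -0.048 and -0.071 in cells with Pdcd1, and 3.39 and 3.43 in cells of 3000 to 6000 UMIs. In cells of 10000 to 20000 UMIs all 3 were 0.11, 0.034 and 0.30. With the Mki67 states weighted alike the first was 0.71, and with 2 UMIs of other cycling genes in place of Mki67 the second was 1.14.

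Among single genes, Cdkn1a in Foxp3 cells turned from -0.31 to 0.14 without cells with macrophage or class II UMIs, where the interval includes equal levels. It was 0.24 for the mean of each cell and 0.16 for thinned cells. Trp53inp1 turned to -0.10 in thinned CD4 cells and to -0.00054 in Cd3e=0 cells with any T cell receptor gene as the T cell mark, and Zmat3 in Cd3e=0 cells to -0.034 for the mean of each cell. Phlda3 in Foxp3 cells turned from 1.07 to -0.40 with 2 UMIs to enter a gate, -0.52 without cells with macrophage or class II UMIs, -0.10 for the mean of each cell, -0.70 without Cd8a or Cd8b1 UMIs, -0.068 without cells over 50000 UMIs and -0.23 without stroma markers. Phlda3 in Cd3e=0 cells turned from 0.29 to -0.16, -0.90, -0.71, -0.43 and -3.75 without macrophage or class II UMIs, for the mean of each cell, thinned, without cells over 50000 UMIs and without stroma markers. The cause was not tested in any of these. Bbc3 in CD8 cells stayed between -1.54 and -1.29 and Bax between -0.71 and -0.41 under 11 alternatives that did not split the cells by Pdcd1 or into depth ranges. Within strata the Bbc3 ratio ran wider, at 0.539 with Pdcd1, 0.504 without it and 0.225 at 6000 to 10000 UMIs, against 0.388 overall. Depth limits Trp53inp1, Phlda3 and Zmat3, which had under 20 CPM in CD8 cells of both libraries.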
